A study of Mus musculus with 21 samples.

Results

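The 2 Setd2 knockout lines of this study, called KO_1 and KO_2 in the sample labels, were compared with each other by the peaks of H3K36me3 called in each of them. Libraries were paired by condition over day 0 (D0), day 1 in control medium (D1_CTL), day 5 in control medium (D5_CTL) and day 5 under methionine restriction (D5_MR), which took 8 of the 20 libraries with a peak list and 8 of all 21 samples. The pair of restricted day 1 libraries was left out of the comparison, since their lists held 791 peaks in line 1 and 127 in line 2. All libraries came from C2C12, a mouse myoblast line that fuses into muscle fibres in culture, and each line had 1 library per condition. The 8 wild-type (WT) libraries of the same conditions, 2 per condition, served as a reference.

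The mark H3K36me3 (histone H3 trimethylated at lysine 36) is placed along the bodies of transcribed genes by SETD2, which travels with elongating RNA polymerase II. The mark usually builds up toward the end of the gene and is low at the gene start. Readers such as LEDGF (Psip1) and MSH6 bind it. SETD2 is the main enzyme for the trimethyl form, while NSD-family and ASH1L enzymes make the lower forms.

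How the knockout was made, and whether a line is 1 clone, is not given in the sources used here. The conditions of a line are therefore repeated looks at the same line and not separate lines. The p-values of library measures below rest on how the difference between these 2 lines varied over 4 conditions. Those of limma for genes take their spread from the trend over genes of like mean cover. The names written inside the peak lists call the libraries replicates 1 and 2 of a single KO group, which goes against the labels; the labels were followed. Read depth is unknown, because a peak list carries none, and could not be compared between the lines. The body of Setd2 itself (chr9, GRCm38.p6) was covered by peaks to 3.16%, 2.07%, 24.0% and 2.67% in line 1, in the order D0, D1_CTL, D5_CTL and D5_MR, and was listed at 0 in all 4 line 2 libraries. The WT means were 71.8%, 66.2%, 80.6% and 58.2%, and cover reports the mark on the gene and not the protein. Values below are in the same order of conditions unless stated.

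Line 1 held longer lists than line 2. It had 23529, 19058, 64530 and 52487 peaks, and line 2 had 3625, 5492, 11854 and 13880. Line 1 peaks covered 17.7, 13.9, 74.1 and 45.8 Mb, and line 2 peaks 1.88, 2.72, 5.69 and 7.13 Mb, so the ranges of the lines did not overlap. The ratio of covered length was lowest at D1_CTL (5.09) and highest at D5_CTL (13.04), with a mean log2 difference of 2.99 ± 0.60 (SD over 4 pairs). The exact sign-flip permutation test over 4 pairs, two-sided, found a difference this large in 2 of its 16 arrangements, the smallest p it can give, with a Benjamini-Hochberg (BH) value of 0.146 over the 7 library measures. The design thus cannot reach 0.05, and each of the next measures whose 4 pairs go one way has these same p-values.

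Line 1 peaks were wider. Median peak width was 484, 477, 601 and 539 bp in line 1 and 401, 387, 393 and 404 bp in line 2. Every line 1 library was above every line 2 library. The WT medians ran from 791 to 909 bp. The 90th percentile of width separated the lines further, at 1356, 1288, 2179 and 1558 bp in line 1 against 872, 793, 780 and 863 bp in line 2. The widest peak of a line 1 list measured 33744, 31985, 90193 and 66058 bp, and that of a line 2 list 8325, 15674, 4258 and 9369 bp. Peaks of at least 2 kb held 26.5%, 24.5%, 47.7% and 31.9% of the bases summed over line 1 peaks and 8.4%, 8.8%, 3.8% and 6.5% of those of line 2, a mean difference of 25.8 ± 12.8 points (SD over 4 pairs). Both lines had fewer such bases than WT, where the share was 66.4% to 76.9%.

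**Figure D1:**
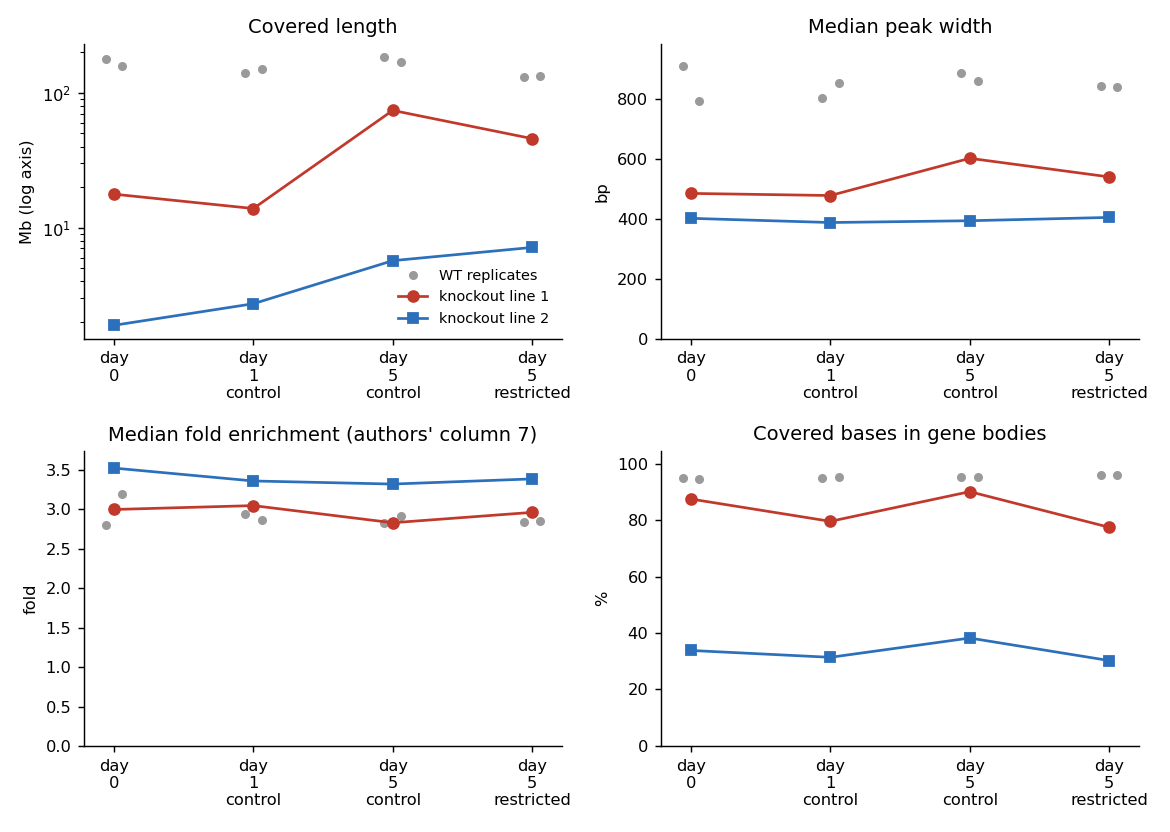
Covered length (Mb, log axis), median peak width (bp), median fold enrichment and share of covered bases in gene bodies (%) in the 4 conditions. Points are single libraries, red for knockout line 1, blue for line 2 and grey for the 2 WT replicates of each condition; line 2 lies lowest for length, width and genic share and highest for fold enrichment.

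**Figure D2:**
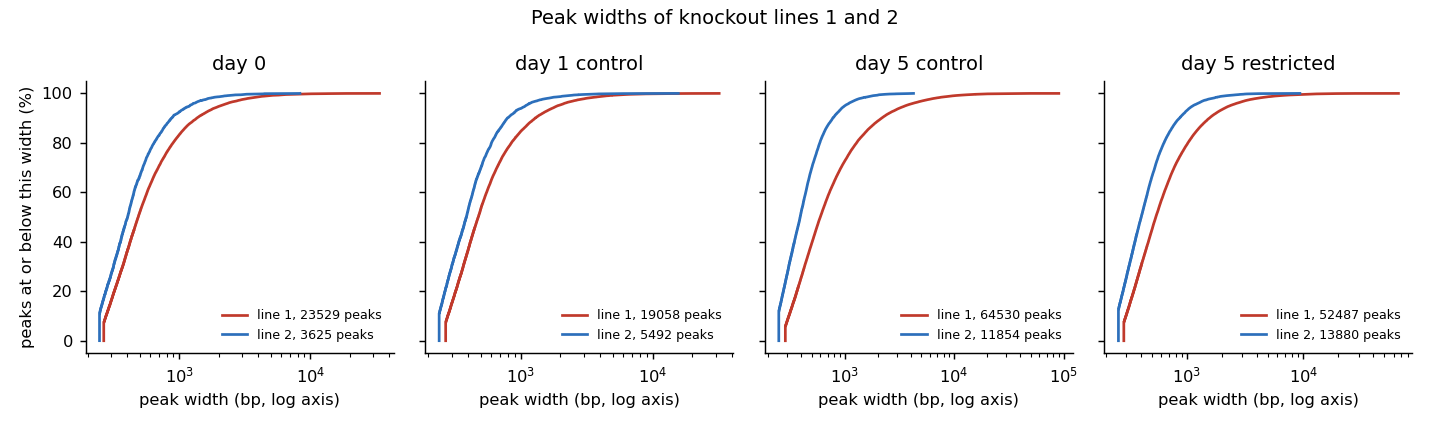
Cumulative share of peaks (%) against peak width (bp, log axis) in each condition, red for line 1 and blue for line 2. The line 2 curve lies to the left in all 4 conditions, with medians of 387 to 404 bp against 477 to 601 bp.

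The fold enrichment of each peak, a value of the authors' peak calling, ran the other way. Its median was 2.9998, 3.05, 2.83 and 2.96 in line 1 and 3.53, 3.36, 3.32 and 3.39 in line 2, a mean difference of -0.438 ± 0.094 (SD over 4 pairs) with no overlap between the lines. These medians describe the lists and give no height on a common scale. The order was not the same in shortened lists. At a −log10 q of at least 3 the mean difference in median fold enrichment was -0.732, in the same direction. When each line 1 list was shortened to the number of peaks of its line 2 partner, keeping the peaks with the lowest q, its medians were 3.59, 3.48, 3.50 and 3.48, and the mean difference turned to 0.113. Among peaks with a −log10 q between 1.5 and 2, a window added after the data were seen, line 1 medians were 2.69 to 2.998 and line 2 medians 3.39 to 3.52. In lists of equal length line 1 peaks were still wider, with medians of 817, 617, 1472 and 816 bp.

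The position of the peaks separated the lines most evenly over the conditions. In line 1, 87.5%, 79.6%, 90.1% and 77.5% of the covered bases lay in annotated gene bodies, and in line 2 33.8%, 31.4%, 38.2% and 30.3%. Gene bodies make up 45.7% of the genome span examined, so every line 2 library lay below that share and every line 1 library above it. The mean difference was 50.2 ± 3.04 points (SD over 4 pairs), and WT libraries had 94.7% to 96.2%. The difference was not confined to wide peaks: among peaks under 1 kb, the genic share was 70.7% to 84.0% in line 1 and 31.7% to 40.1% in line 2. Peaks of at least 2 kb were 86.0% to 95.3% genic in line 1 and 16.99% to 22.7% in line 2. Expressed as length, line 1 had 24.3, 12.9, 30.7 and 16.4 times the genic bases of line 2 but 1.78, 1.51, 2.09 and 2.07 times the intergenic bases.

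Cover rose along the gene body in all 4 line 1 libraries. In the 15327 of 19300 protein-coding genes for which a strand was at hand, cover in the last 20% of the gene body was 9.004, 8.40, 2.91 and 2.39 times that in the first 20% in line 1. In line 2 the ratio was 1.19, 0.90, 0.12 and 0.60. Line 1 cover peaked at 72.5% to 82.5% of the way along the body. Its highest mean value was 4.94% of bases at D0, 3.41% at D1_CTL, 14.7% at D5_CTL and 6.94% at D5_MR. In line 2 the highest value along the body was 0.037%, 0.048%, 1.44% and 0.088%. At D5_CTL it sat in the first stretch of the body, centred at 2.5% of its length, with 0.50% in the next stretch. At D1_CTL it sat there too, but the stretch centred at 57.5% was almost level with it, at 0.046%. Over the bases around the gene start, line 1 cover was 0.15 to 0.38 times that 3 to 5 kb upstream, while line 2 cover was 1.63, 1.98, 24.4 and 1.30 times its own upstream level. Line 2 cover at the start was 0.031%, 0.054%, 2.84% and 0.087%, so its ratios outside D5_CTL rest on very few bases. These profiles are descriptions over genes, which are not replicates.

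**Figure D3:**
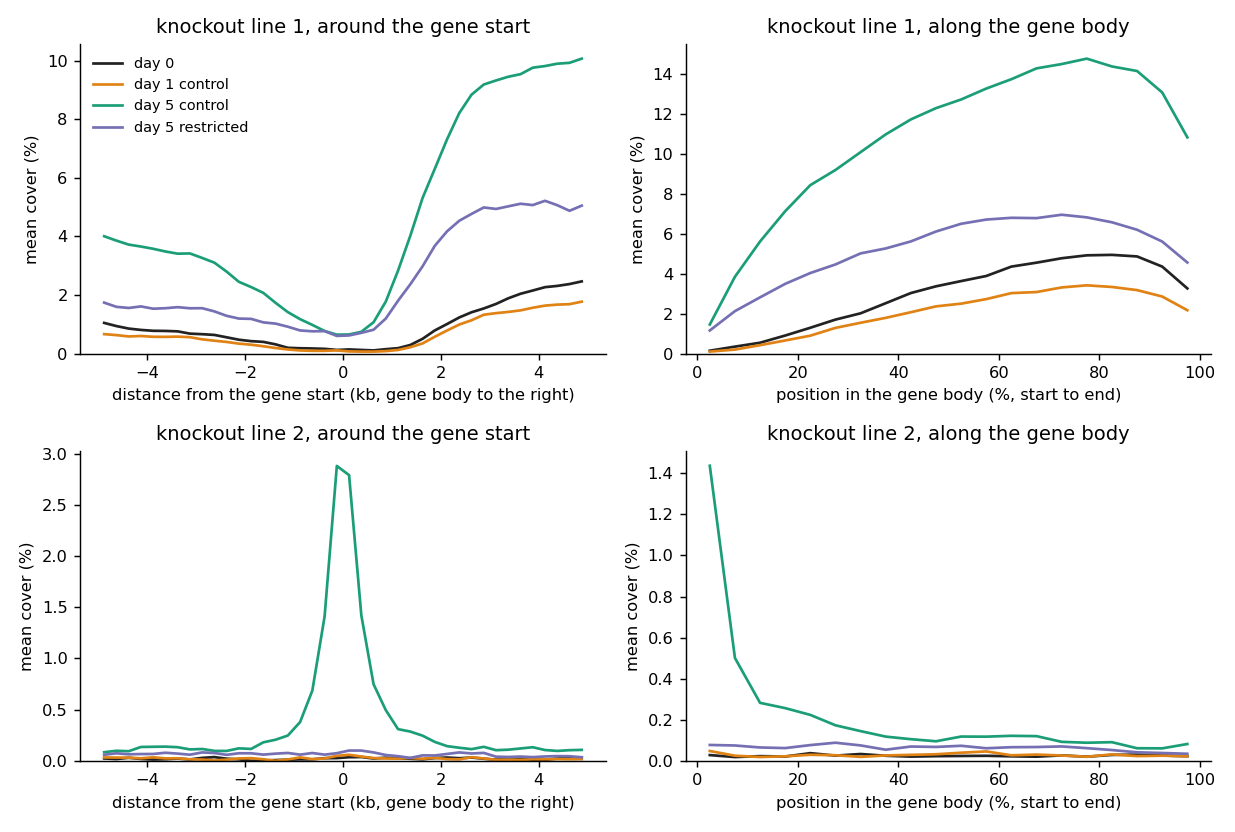
Mean cover (%) of protein-coding genes against distance from the gene start (kb, left) and against position in the gene body (%, right), for knockout line 1 (top) and line 2 (bottom), 1 curve per condition. The vertical axes differ between panels: line 1 rises along the body to 3.41% to 14.7%, and line 2 at D5_CTL has a narrow maximum at the gene start.

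Cover of each gene, the percent of its body inside peaks, was then tested between the lines with limma in a model with condition as a block. Of 19300 protein-coding genes of at least 2 kb, 3076 passed the filter of a mean cover of at least 5% over the 8 libraries. Because line 2 cover was so low, that filter was passed mainly through line 1 and leaves the direction over these genes largely fixed: line 2 had the higher mean in 8 of the 3076. Of these, 639 had higher cover in line 1 at a BH-adjusted p under 0.05, 20.8% of those tested, and 0 had higher cover in line 2 (1141 and 0 at an unadjusted p under 0.05). Over all 3076 genes the median difference was 22.1 points. Without the filter, over the 9646 genes with any cover, limma called 463 genes higher in line 1 and 0 in line 2, 90.6% of the genes had the higher mean in line 1, and the median difference was 3.59 points. With 3 residual degrees of freedom, limma's prior on the spread was unbounded, so a gene's standard error came from the trend over genes of like mean cover and not from its own 4 pairs. Without trend and robust settings limma called 1236 genes, among them all 639. Leaving out the D5_MR pair gave 278 calls and leaving out the D0 pair 397.

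The 10 genes with the largest called differences had most of their body covered in each line 1 library and were listed at 0 in line 2. Fn1, which encodes fibronectin (chr1:71585473-71653280, GRCm38.p6), had 90.1%, 95.4%, 98.8% and 97.4% of its body covered in line 1 and was listed at 0 in line 2, a mean difference of 95.4 points. The 10 genes passed the filter through line 1 alone and were then ranked by that difference, so no p-value is given for them. The same holds below for other genes at or near 0 in line 2, for which a call states only that the gene passed the threshold of the fit. The WT means were 97.9%, 97.8%, 98.0% and 94.9%. Rpl3, a ribosomal protein gene with 2 annotated pseudogene copies and therefore uncertain, had 85.6%, 85.7%, 97.8% and 99.1% in line 1 and 0 in line 2. Col1a2, a chain of type I collagen, had 88.6%, 91.1%, 92.5% and 94.1% against 0. The other 7 genes named by the rule were Csf1, a growth factor of macrophages, Dnaja2, a chaperone partner, Col3a1, Thbs1, which encodes thrombospondin 1, Eno1, a glycolytic enzyme, Zfp330 and Scd2, a fatty acid desaturase. All 7 had between 75.5% and 97.5% in each line 1 library and were listed at 0 in all line 2 libraries. The body of Csf1 lies wholly inside another gene record, so its cover cannot be assigned to it alone.

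Counting genes with at least 50% cover, called marked here, line 1 had 204, 158, 1621 and 640 and line 2 had 0 in all 4 libraries. Of the line 1 genes, 99.5%, 97.5%, 92.4% and 49.7% were also marked in the WT mean of the same condition. The WT mean itself had fewer marked genes at D5_MR, with 5283, 4419, 5038 and 3323 of the 19300. At D5_MR, 322 of the 640 genes marked in line 1 were not marked in WT, and 76.3% of the 640 had more cover in line 1 than in WT, against 2.45%, 8.23% and 31.2% in the other conditions. Gapdh, a glycolytic enzyme, had 32.9%, 8.36%, 81.1% and 80.3% in line 1 and 76.6%, 76.9%, 76.3% and 4.65% in WT, and was listed at 0 in line 2. Tuba1b, an alpha-tubulin, had 6.82%, 7.39%, 70.4% and 81.9% in line 1 and 71.03%, 64.7%, 53.7% and 0 in WT. In line 2 Tuba1b had 28.1% at D5_CTL and was listed at 0 in the other 3 libraries. In both genes line 1 was above 70% in the 2 day 5 libraries, and WT was lower at D5_MR than in its other conditions. In line 1, 117 genes were marked in all 4 libraries.

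Gene lists are described by their counts beside the 20.8% called over all tested genes, with no test of a list. Among translation factors and ribosomal proteins, 20 of 23 tested genes were higher in line 1. Over the 24 measured genes of the list, the median cover was 55.9% in line 1 and 0 in line 2. They included Rack1 (65.2%, 75.3%, 90.6% and 88.2% in line 1, 0 in line 2) and Eif4a1, an RNA helicase of translation initiation (65.1%, 46.7%, 80.1% and 77.0% against 0). Many genes of this list have near-identical copies elsewhere in the genome, so their cover is uncertain. Of cytoskeletal and housekeeping genes, 17 of 21 tested were higher in line 1. Vim, which encodes vimentin, had 82.4%, 81.0%, 96.5% and 88.0% in line 1 and 0 in line 2. Among collagen and extracellular matrix genes 11 of 19 tested were higher in line 1, among them Sparc (75.7%, 78.2%, 87.6% and 82.8% against 0) and Col6a1. For Col6a1, a chain of type VI collagen, line 1 had 26.9%, 78.5%, 91.6% and 91.0%, above the WT means of 14.4%, 56.0%, 48.0% and 13.3% in all 4 conditions.

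Of 11 tested muscle genes 2 were higher in line 1, and of 10 tested cell cycle genes 2 were, both near the 20.8% called over all tested genes. Cover in line 1 was higher at day 5 over all genes, with 1675, 1086, 4702 and 2468 of the 19300 at 10% or more, and no test between days was run. Ttn, the gene of the giant sarcomere protein titin, was listed at 0 at D0 and D1_CTL in line 1 and had 92.1% and 73.8% in its day 5 libraries, against 0 in line 2. Tnnc1, a troponin, had 0, 0, 98.6% and 32.8% in line 1 and was not called, nor was Neb with 55.4% at D5_CTL. The numbers of muscle genes marked were 0, 0, 5 and 3 of 23 in line 1, 0 throughout in line 2, and 5, 9, 19 and 5 in WT, beside the 204, 158, 1621 and 640 of all 19300 genes in line 1. Top2a, the topoisomerase of dividing cells, had 80.6%, 85.7%, 16.3% and 3.51% in line 1 and 0 in line 2. Ccnd1, which encodes the G1 cyclin D1, had 26.9%, 27.2%, 70.003% and 44.0% against 0 and passed the threshold. Its highest value was at D5_CTL, as were those of the replication helicase genes Mcm6 (35.9%, 23.8%, 65.2% and 31.0%) and Mcm7 (31.9%, 27.2%, 71.6% and 9.88%), which were not called. Other genes of that helicase were highest at D0 in line 1: Mcm2 (33.8%, 15.4%, 2.65% and 0), Mcm3 (35.1%, 20.2%, 0 and 0) and Mcm5 (20.4%, 8.36%, 0 and 0). Cdk1, the mitotic kinase, had 64.2%, 67.1%, 4.06% and 19.4% in line 1 and at most 0.45% in line 2, and was not called. The numbers of cell cycle genes marked were 2, 2, 3 and 0 of 18 in line 1, 0 throughout in line 2, and 17, 17, 6 and 5 in WT, to be read against the same totals. Both called muscle genes, Ttn and Mef2d, and both called cell cycle genes, Top2a and Ccnd1, lost their call under several alternatives.

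Of the enzymes that add or remove H3K36 methylation, 5 of 11 passed the filter and 0 were called by limma (2 at an unadjusted p under 0.05). Kdm4a, a demethylase of the mark, had 18.8%, 14.9%, 71.1% and 13.1% in line 1 and 0 in line 2. Of the readers, 7 passed the filter and 1 (14.3%, beside the 20.8% over all tested genes), Morf4l1, was higher in line 1, with 37.1%, 30.2%, 73.9% and 66.9% against 0. Its call was lost in 3 of 10 alternatives. In the methionine cycle 1 of 5 tested genes was higher in line 1: Mat2a, which makes S-adenosylmethionine, the methyl donor of SETD2, had 63.3%, 71.1%, 86.3% and 82.3% in line 1 and 0 in line 2. Among amino acid stress genes 2 of 12 were called, Ddit3, whose call was lost in 3 of 10 alternatives, and the amino acid transporter Slc38a2, the latter with 90.3%, 80.4%, 88.4% and 90.3% against 0. Of the neuronal, liver, blood and fat cell genes, 0 passed the filter; of the bone and cartilage genes 1 of 2 tested, Sox9, was higher in line 1, a call lost in 6 of 10 alternatives.

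Genes with the highest cover in line 2 reached modest values. Ly6e, a surface protein gene with 1 annotated pseudogene copy, was listed at 0 at D0 and D1_CTL and had 43.8% and 35.1% at day 5 in line 2. In line 1 it had 39.5%, 39.5%, 95.4% and 88.1%, higher in all 4 pairs (difference 45.9 ± 6.14 points, SE; limma adjusted p = 2.45e-12, 1.16e-14 to 0.144 over its alternatives). Ubb, a ubiquitin gene, was covered in all 4 line 2 libraries, at 18.5%, 14.7%, 18.99% and 19.7%, below line 1 at 24.9%, 20.3%, 27.4% and 27.3% (difference 7.01 ± 15.3 points, SE; limma adjusted p = 0.648). Cd53, a tetraspanin of white blood cells, had 17.6%, 6.57%, 13.5% and 19.7% in line 2, above line 1 at 1.57%, 0, 8.87% and 2.77% in each pair, and was listed at 0 in WT. This difference of -11.02 ± 11.3 points (SE) was not called (limma adjusted p = 0.333). Macc1 was likewise above line 1 in each pair, with 1.94%, 7.58%, 8.74% and 26.9% against 0, 0.66%, 2.01% and 6.08%, and not called (limma adjusted p = 0.335). The standard errors and p-values of these genes come from the trend over genes. They do not tell how alike a gene's own 4 pairs were. Cdh10, a cadherin of neurons, had 5.17%, 10.2%, 8.80% and 15.4% in line 2 and was listed at 0 in line 1 and in WT; it did not pass the filter.

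Genes touched by line 2 peaks were long ones. A gene counts as touched with any covered base, so longer genes are touched more readily, and a preference for long genes was not tested. The median length of a gene with any cover was 162, 150.1, 51.6 and 125.2 kb in line 2 and 32.8, 34.5, 29.8 and 35.0 kb in line 1, against 21.3 kb for all 19300 genes. Of the genes touched in line 2, 6.64%, 6.98%, 31.2% and 4.43% were marked in WT, where 27.4%, 22.9%, 26.1% and 17.2% of all genes were. The D5_CTL library of line 2 stood apart in both measures, with shorter genes and more of them marked in WT.

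That library also had a class of peaks at gene starts. Of its 11854 peaks, 750 (6.33%) overlapped an annotated start window, taken from 250 bases before to 50 after the start, while in the other 7 libraries of both lines the share was 0.45% to 0.91%. The mean difference between lines was -1.32 ± 2.81 points (SD over 4 pairs; exact sign-flip permutation p = 0.625), and without the D5_CTL pair it was 0.0747. The 750 peaks touched 989 gene starts of 902 genes, of which 901 starts (91.1%) had no peak in the other 7 lists. These starts were rich in CpG, the dinucleotide that marks the promoters of many widely expressed genes: 73.0% held at least 15 CpG in the 250 bases before the start, with a median of 20. Of all 32851 annotated starts 27.3% did, with a median of 6. In the other 7 lists the share was 6.96% to 14.3% and the median 2 to 4. Few of the gene-start peaks lay in peaks of another library: 4.40% touched a WT peak of D5_CTL and 7.33% a line 1 peak, against 4.85% and 23.6% of the remaining line 2 peaks. Their median fold enrichment was 3.02 and that of the remaining peaks 3.34. Jund, a transcription factor gene, and Pcgf1, a Polycomb gene, had 37.7% and 37.5% of their bodies covered in this library and were listed at 0 in the other 7.

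The 3 gene starts below, taken from RefSeq on GRCm38.p6, carried the line 2 D5_CTL gene-start peaks with the smallest q among protein-coding genes with no peak there in the other 7 lists. They are shown for their base composition, as the 250 bases before the start, with each CpG in capitals. Exoc8, a subunit of the exocyst, has its window at chr8:124897706-124897955 on the minus strand, with 34 CpG and a peak of 350 bp. Man1b1, a mannosidase of the endoplasmic reticulum, has it at chr2:25332493-25332742 on the plus strand, with 28 CpG and a peak of 288 bp. Nup50, a nuclear pore protein, has it at chr15:84923178-84923427 on the plus strand, with 31 CpG and a peak of 308 bp.
Exoc8: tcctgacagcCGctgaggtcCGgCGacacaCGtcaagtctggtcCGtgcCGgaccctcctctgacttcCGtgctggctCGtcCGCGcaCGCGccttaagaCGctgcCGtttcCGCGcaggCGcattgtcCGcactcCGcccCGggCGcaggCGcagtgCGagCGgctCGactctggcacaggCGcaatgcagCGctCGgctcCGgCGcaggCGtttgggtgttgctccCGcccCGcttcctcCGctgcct
Man1b1: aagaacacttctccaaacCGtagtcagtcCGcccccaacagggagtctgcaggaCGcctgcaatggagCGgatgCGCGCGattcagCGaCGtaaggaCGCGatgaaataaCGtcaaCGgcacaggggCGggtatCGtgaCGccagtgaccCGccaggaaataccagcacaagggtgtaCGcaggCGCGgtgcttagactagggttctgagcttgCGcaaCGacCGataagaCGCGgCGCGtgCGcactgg
Nup50: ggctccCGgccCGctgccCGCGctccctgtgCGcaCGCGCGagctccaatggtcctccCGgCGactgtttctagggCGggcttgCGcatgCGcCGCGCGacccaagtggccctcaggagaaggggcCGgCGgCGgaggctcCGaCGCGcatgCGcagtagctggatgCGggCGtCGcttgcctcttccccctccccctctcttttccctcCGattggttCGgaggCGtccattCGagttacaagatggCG

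The fourth start contrasts with them as a start covered in line 1 at D5_CTL and in no line 2 list. Its CpG number, 4, is the median of the starts in that line 1 list, and among protein-coding genes of that number its peak had the smallest q. Cd68 has its window at chr11:69666171-69666420 on the minus strand. The line 1 peak over it was 5347 bp long, from 69665984 to 69671330, and most of it lay over the neighbouring gene Eif4a1 (69666936 to 69672423).
Cd68: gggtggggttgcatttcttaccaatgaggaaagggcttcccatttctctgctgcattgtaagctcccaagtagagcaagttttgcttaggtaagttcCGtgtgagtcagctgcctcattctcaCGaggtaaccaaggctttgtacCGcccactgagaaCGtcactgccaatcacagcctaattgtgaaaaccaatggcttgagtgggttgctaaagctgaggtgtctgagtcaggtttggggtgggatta

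Shared positions were few but not evenly spread. Of the line 2 peaks, 24.6%, 20.6%, 22.6% and 23.2% touched a line 1 peak of the same condition by at least 1 bp. Of the line 1 peaks, 3.76%, 5.83%, 3.94% and 5.82% touched a line 2 peak. By length, 22.1%, 21.2%, 20.9% and 21.1% of line 2 bases lay in line 1 peaks, which covered 0.651%, 0.509%, 2.72% and 1.68% of the span. The Jaccard index (bases common to both lists divided by all bases in either of them) was 0.0217, 0.0360, 0.0151 and 0.0293 between the lines and 0.692 to 0.697 between the WT replicates of the same conditions. Relaxing the overlap to a distance of 1 kb raised the mean share of line 2 peaks that touched line 1 from 22.7% to 29.7%, and lists of equal length lowered it to 9.46%. In the latter, line 1 keeps only its peaks with the smallest q, while line 2 keeps all.

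What the lines shared lay mostly outside genes. Of the bases in both lists, 35.2%, 31.5%, 39.7% and 33.5% were genic, close to line 2 and far from line 1. Line 1 peaks that touched a line 2 peak were 36.8%, 32.1%, 53.8% and 39.1% genic by length, while the other line 1 peaks were 89.6%, 83.5%, 91.7% and 80.7%. Of the intergenic bases of line 1, 12.2%, 13.98%, 9.81% and 9.74% lay in line 2 peaks, against 0.95%, 1.65%, 0.71% and 1.42% of its genic bases. Split by WT peaks instead, 10.985%, 11.4%, 6.83% and 5.42% of line 1 bases outside WT peaks were in line 2 peaks, and 0.30%, 0.43%, 0.21% and 0.29% of those inside. Line 1 bases lay in WT peaks to 80.8%, 66.1%, 78.9% and 41.5%, and line 2 bases to 3.80%, 2.51%, 3.46% and 1.20%, below the 7.31%, 6.30%, 7.70% and 5.75% of the span that WT peaks covered.

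**Figure D4:**
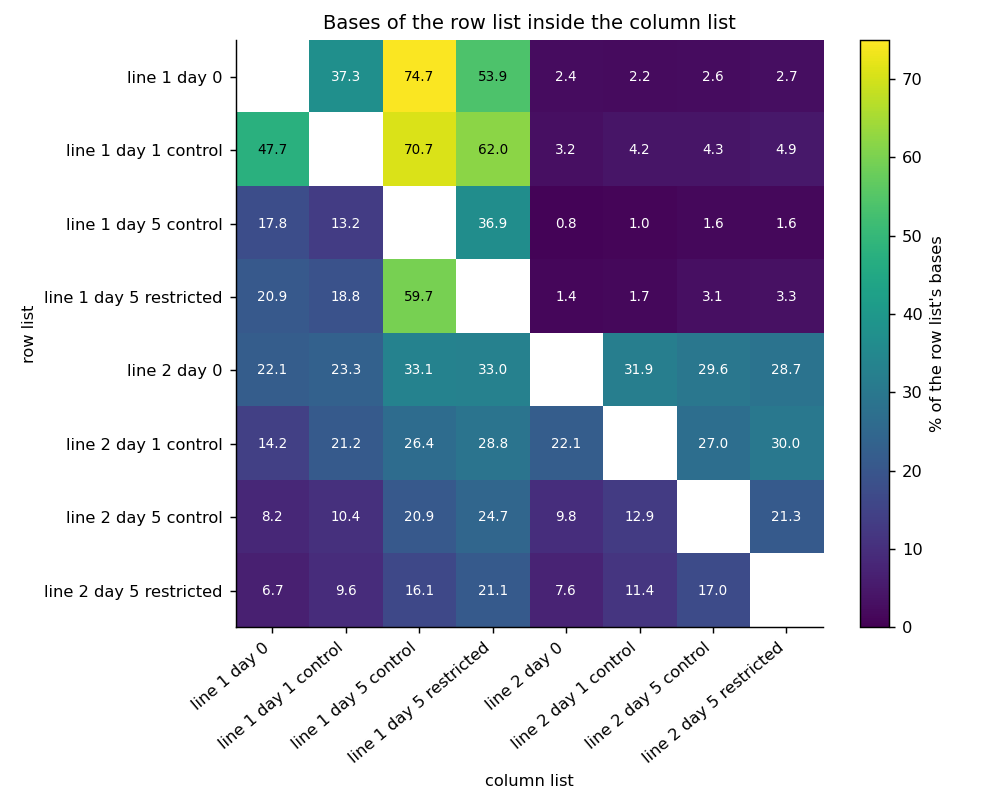
Percent of the covered bases of each knockout list (rows) that lie in each other list (columns), over 4 conditions of line 1 and 4 of line 2. The upper right block, line 1 bases in line 2 lists, holds values of 0.84% to 4.94%, and the lower left block, line 2 bases in line 1 lists, 6.71% to 33.1%.

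The share of line 2 bases in another line 2 list was 7.58% to 31.9%, and in a line 1 list of another condition 6.71% to 33.1%. These shares depend on the length of the list they are taken in. Of the line 2 D0 bases 33.1% lay in the line 1 D5_CTL list, which covers 2.72% of the span, and 31.9% in the line 2 D1_CTL list, which covers 0.100%. Within line 1 the shares were 13.2% to 74.7%. Of the 14.1 Mb covered in any line 2 list, 83.2% was covered in 1 list and 1.53% (216 kb) in all 4. The more lists a line 2 base was in, the more often it was in line 1: 23.0% of bases in 1 list lay in some line 1 list, 50.1% of those in 2, 65.5% of those in 3 and 82.0% of those in all 4. The genic share of these bases went from 35.4% to 25.2%. In line 1, 5.003% of 98.7 Mb (4940 kb) was covered in all 4 lists, and that part was 90.6% genic, with 91.0% of it in a WT peak.

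The longest segments covered in all 4 line 1 lists and in no line 2 list lay in Col1a2 (31052 bp, chr6:4509562-4540613), Myh9, which encodes non-muscle myosin (27590 bp), Plec, which encodes plectin (19464 bp), Col3a1 (18003 bp) and Sparc (16712 bp). Each of the 5 lay wholly in WT peaks. Of the 6931 segments covered in all 4 line 1 lists, 6208 had no base in any line 2 list, and these were 95.3% genic by length. Of the 576 segments covered in all 4 line 2 lists, 109 had no base in any line 1 list, 29.5 kb in all and 19.4% genic. Segments partly covered in the other line are not among these. The longest, 1330 bp at chr16:68682886-68684215, lies in no gene and 1062 kb from the nearest protein-coding gene, Cadm2. Its peaks had a fold enrichment of 3.96, 3.80, 4.52 and 4.13. Of the 5 longest of these segments, 1 was genic, 884 bp in Atp8b4 (chr2:126427302-126428185), and none of the 5 had a base in a WT peak.

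The 198 segments covered in all 8 lists amounted to 71.1 kb and were 25.8% genic. The longest, 3478 bp at chr1:145953439-145956916, lies in no gene and 539 kb from Brinp3, the nearest protein-coding gene. Here the peaks had a fold enrichment of 4.06, 4.32, 5.30 and 5.05 in line 1 and 5.03, 4.34, 3.75 and 4.33 in line 2, and WT peaks covered 19.7% of it. A further 3 of the 5 longest lay upstream of it on chromosome 1, from 145936708 to 145951086. The remaining one, 1297 bp at chr6:12814281-12815577, is 65.0 kb from Thsd7a.

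The comparison was repeated in bins of 10 kb, without gene annotation. Of 11772 bins with a mean cover of at least 5%, limma called 1233 (10.5%) higher in line 1 and 4 (0.034%) higher in line 2; at an unadjusted p under 0.05 the counts were 3468 and 23. All 4 line 2 bins lay outside genes. The largest difference was at chr1:27590001-27600000, with -59.6 points. Line 2 cover alone was enough to carry this bin past the filter, and it was picked by that difference, so no p-value is given. A neighbouring pair called on chromosome 2 starts at 126300001 and 126310001. As for genes, most of the 11772 bins passed the filter mainly through line 1. The number of line 2 bins ranged from 0, with 50 kb bins, to 12, with 5 kb bins, and was 1 without the D1_CTL pair.

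On a larger scale line 2 peaks were gathered on parts of some chromosomes. The line 2 share of covered bases was above that of line 1 without overlap of the 4 libraries on chromosomes 1, 2, 3, 5, 12, 15 and 16, and below it on 7, 8, 9, 11, 13, 14, 17, 18 and 19. Chromosome 15, with 3.82% of the span, held 12.9%, 13.8%, 11.6% and 13.02% of line 2 bases. It held 8.76%, 9.42%, 6.65% and 7.61% of line 1 bases and 4.22% to 4.61% in WT. Chromosomes 1, 3, 15 and 16, chosen after the values were seen, together held 41.9% to 47.2% in line 2, 24.0% to 28.6% in line 1 and 19.03% to 19.3% in WT, at 20.5% of the span.

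**Figure D5:**
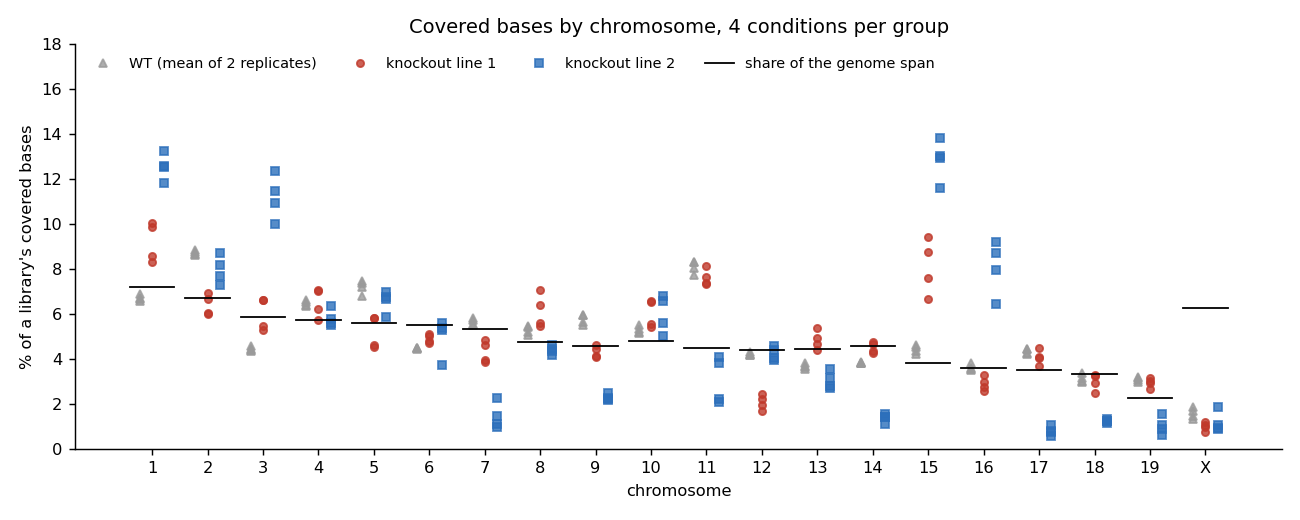
Share of each library's covered bases (%) on each chromosome; blue squares are the 4 line 2 libraries, red circles the 4 line 1 libraries, grey triangles the WT mean of each condition, and black bars the chromosome's share of the genome span. Line 2 lies highest on chromosomes 1, 3, 15 and 16 and below the bar in all 4 libraries on 7, 8, 9, 11, 13, 14, 17, 18, 19 and X.

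In 537 windows of 5 Mb, the covered length of line 2 libraries ranked alike between conditions (Spearman 0.786 to 0.857 over 6 pairs of libraries), as did that of line 1 (0.839 to 0.903), while between the lines the values were -0.03 to 0.31. With the genic share of a window the correlation was 0.41 to 0.57 in line 1 and -0.17 to -0.01 in line 2. Windows share the same libraries and base composition, so these values are descriptions. The 102 windows under 30% genic held 22.02%, 28.7%, 27.2% and 31.6% of line 2 bases and 7.45%, 8.93%, 6.82% and 8.64% of line 1 bases. The window from 15 to 20 Mb of chromosome 15, which holds Cdh10, had 22.6, 59.9, 109 and 149 kb of line 2 peaks and 0 kb of line 1 peaks in all 4 libraries. The window from 45 to 50 Mb of the same chromosome had 24.5, 53.2, 135 and 206 kb in line 2 and 10.7, 21.2, 25.7 and 42.3 kb in line 1, and 0 in WT. In the window from 145 to 150 Mb of chromosome 1, both lines had peaks, 59.2, 89.3, 107 and 153 kb in line 2 and 60.0, 98.9, 248 and 260 kb in line 1.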

How the data were processed

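H3K36me3 ChIP-seq peak lists of 8 knockout libraries were compared, with 8 WT libraries as reference. Per the submitters' processing notes the build is GRCm38; aligner and peak caller are not given in the sources used here. Per the labels' protocols, Drosophila chromatin was added as a spike-in; no spike-in scaling was applied here. Each library has its own deposited list in a broad-peak layout, with a fold enrichment ratio per peak, −log10 p and q values and a score by the authors; the score was not used.

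Overlapping peaks of a library (autosomes, X and Y) were merged. Gene bodies (49939 records) and start windows (32851 starts of 27025 genes) came from RefSeq tables on GRCm38.p6. Library values were compared by exact sign-flip permutation tests, and gene and 10 kb bin cover by limma 3.58.1 in R 4.3.3 (adjusted p under 0.05, BH). Intervals were tested on simulated data; the limma step recovered 0.5% of 200 genes changed by 15 points and 47.5% of 200 changed by 30, with 7.77% false calls in the latter. Named genes are the 10 with the largest called difference agreeing in all pairs, the 10 highest in each line, list members with at least 5% mean cover and Setd2; not all are printed. Members, lists and tests were chosen with earlier results of these data known. Alternatives were stricter lists (−log10 q of at least 3), lists of equal length, peaks under 1 kb, other overlaps, filters and bins, and leaving out a pair.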

Additional observations from a re-analysis of the deposited data

Results flagged for a closer look

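Of 21 changes compared between the lines (7 measures over the steps D0 to D1_CTL, D0 to D5_CTL and D5_CTL to D5_MR), 11 went up in one line and down in the other. Each rests on 1 library per line and condition, so none of these differences was tested. Values are the line 1 change minus the line 2 change. From D0 to D1_CTL the log2 number of peaks differed by -0.90 (line 1 fell, line 2 rose) and the log2 covered length by -0.89. From D5_CTL to D5_MR, the step of methionine restriction, they differed by -0.53 and -1.02, with line 1 again falling while line 2 rose. The log2 median width differed by 0.34 from D0 to D5_CTL, where line 1 peaks widened, and by -0.20 from D5_CTL to D5_MR. The share of bases in peaks of at least 2 kb differed by -2.36 points from D0 to D1_CTL, by 25.8 points from D0 to D5_CTL and by -18.5 points from D5_CTL to D5_MR. The median fold enrichment differed by 0.213 from D0 to D1_CTL, and the share of peaks at gene starts by 5.98 points from D5_CTL to D5_MR.

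The share of peaks at gene starts in line 2 at D5_CTL, 6.33%, stood far from the other 3 libraries of its line. Of 14 sets of 4 libraries checked in this way it alone stood out, and chance flags about 1 in 20.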

How the results depend on the processing

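Of 57 alternatives to the 7 library measures, 55 kept the direction of the difference, and 2 did not. In lists of equal length the difference in median fold enrichment turned to 0.113, and without the D5_CTL pair that in the share of peaks at gene starts turned from -1.32 to 0.0747 (-1.92 was the lowest value with a pair left out); the cause was not tested for the first, and the second follows from the D5_CTL library. The share of line 2 peaks touching line 1 was 22.7%, and 17.46% with at least 50% of the peak covered, 29.7% within 1 kb, 30.2% at a −log10 q of at least 3 and 9.46% in lists of equal length. For line 1 peaks touching line 2 (4.84%) the values were 2.77%, 6.74%, 3.61% and 8.47%. Gene calls higher in line 1 (639) were 181 at a −log10 q of at least 3, 295 in lists of equal length, 1236 in limma without trend and robust settings, 161 with the restricted day 1 pair and 278 to 578 when each pair was left out; 0 genes were higher in line 2 in any. Bins higher in line 1 (1233) were 2384 at 5 kb, 41 at 50 kb, 276 in lists of equal length and 568 to 1061 with a pair left out. Bins higher in line 2 (4) were 12, 0, 5 and 1 to 4. The cause of these shifts was not tested. Lists of equal length hold all line 2 peaks and only the 15.4% to 28.8% of line 1 peaks with the smallest q. The lines are thus cut at unlike q there. Of 62 named genes called by limma, 35 kept their call in all 10 alternatives and 27 lost it in at least 1; of the 64 not called, 16 were called in at least 1. Ifitm2, which was not called, changed sign in lists of equal length (-8.23 points) and without the D5_MR pair (-2.46 points).

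No paired analysis was possible because, for replicate numbers, each line has only number 1 in every condition. The pairs used in all tests are instead the conditions; without the condition block 724 genes and 947 bins were called higher in line 1 and 6 bins higher in line 2. Depth is unknown, and 1 library per line and condition leaves no replicate of a line.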
